A study of Bos taurus with 6 samples.

Results

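Genes of fat storage and fatty acid use were followed in muscle of Angus and Luxi cattle. They are the 5 entries with the symbol ADIPOQ, CIDEC, FABP3, ACADL or SLC27A6 among the 232 entries of the authors' list of breed differences. They were chosen from that list, so the direction and size of their breed difference are a description and are given no test here. Muscle RNA was sequenced from 3 Angus beef cattle and 3 Chinese Luxi cattle, all 18 months old, and the labels give no treatment, sex or muscle name. The deposited values are breed means in RPKM (reads scaled to gene length and library depth, so levels of different genes can be compared). The authors' listing ended at an FDR of 9.67e-04 and a log2 ratio of 1.00 in either direction.

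Fatty acids reach muscle from the blood, cross the fibre membrane, are carried through the cytoplasm by binding proteins and are oxidised in mitochondria. Adipocytes lie between the fibres of beef muscle and store fatty acids as triacylglycerol, the fat seen as marbling. ADIPOQ and CIDEC belong to the fat cell: adiponectin, the product of ADIPOQ, is a hormone secreted by adipocytes, and CIDEC sits on lipid droplets and helps them to merge and grow. FABP3 is the fatty acid binding protein of heart and muscle fibres, ACADL is a mitochondrial dehydrogenase of long-chain acyl-CoA, and SLC27A6 is a fatty acid transport protein of the plasma membrane with acyl-CoA ligase activity.

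The breed means were resolved into single libraries as far as they allow. Each deposited mean count gives the sum of reads over 3 libraries, and the mean RPKM weights each library's reads by its depth, so only some whole-number sets of reads give both values. Recovered depths were 5429317 to 5736365 reads in the Angus libraries and 5799075 to 6047227 in the Luxi libraries. Below, a library is named by its depth within its breed (deepest, middle or shallowest), because none could be tied to a labelled animal. For a gene with 1 possible set the means allow only those reads, and for the others the range over all sets is given. The deepest Angus library had the highest Angus value in every set for 38 of the 147 genes higher in Angus. The middle library had it for 10 and the shallowest for 24. The deepest library was highest in no set for 76 of these genes, the middle for 62 and the shallowest for 81. The means fix the middle library least, so these counts do not rank the libraries. Among fibre genes, the slow light chain MYL3 had 365 and 139 RPKM in Angus and Luxi in the authors' deposited table. The fast heavy chain MYH4 had 28.3 and 1.00 RPKM there, the Luxi value from 103 reads over 3 libraries. They were the 1 listed of 10 slow and the 1 listed of 11 fast fibre markers, and the others have no value here. Both breed means thus held reads of fibre genes.

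Angus had the higher mean in 4 of the 5 genes and Luxi in 1. Over the whole list 63.4% were on the Angus side and 36.6% on the Luxi side, and nothing is read from this count because the genes were chosen from the same contrast. Both fat cell genes and the binding and oxidation genes FABP3 and ACADL were on the Angus side, and the transporter SLC27A6 was on the Luxi side. The median log2 ratio of Angus over Luxi was 1.56 for the 5 genes and 1.15 for all 232. For the 122 genes higher in Angus with reads in both breeds the median was 2.67-fold, and for the 63 higher in Luxi it was 2.62-fold. ADIPOQ at 2.95-fold and FABP3 at 3.01-fold thus lay a little above the middle of their side, ACADL at 2.22-fold below it, and SLC27A6 at 3.80-fold had the 10th largest of the 63 Luxi ratios.

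**Figure D1:**
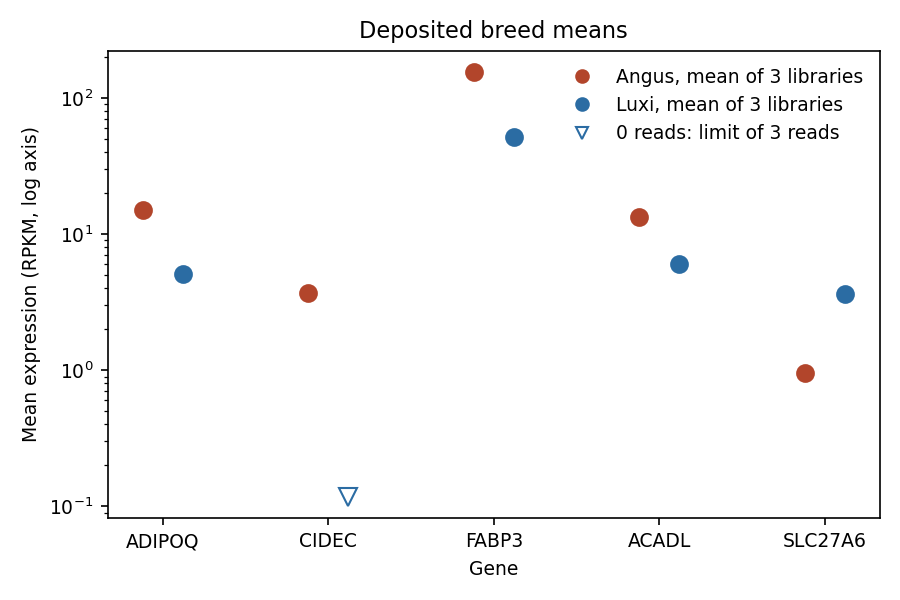
Deposited mean expression of the 5 genes (RPKM, log axis) in Angus (red) and Luxi (blue), each point the authors' mean of 3 libraries; the open triangle marks the limit of 3 reads for CIDEC in Luxi, where no read was counted. FABP3 has the highest level in both breeds, and SLC27A6 is the gene with the higher point in Luxi.

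FABP3 was by far the most abundant of the 5. In the authors' deposited table its means were 155 RPKM (Angus) and 51.6 RPKM (Luxi), rank 9 and rank 24 of the 232 genes by level. ADIPOQ averaged 15.1 and 5.14 RPKM and ACADL 13.4 and 6.06 RPKM in the authors' deposited table. These neighbours in level differed in Angus by less than the SD of either gene between the Angus libraries, which was at least 14.4 RPKM for ADIPOQ and at least 4.42 RPKM for ACADL in every set. CIDEC averaged 3.69 RPKM in Angus and was listed at 0 in Luxi. SLC27A6 averaged 0.958 RPKM in Angus, rank 209 of 232 in a table where 22 genes are listed at 0 in that breed, and 3.64 RPKM in Luxi. By level in Angus the order was thus FABP3, ADIPOQ, ACADL, CIDEC and SLC27A6, and in Luxi it was FABP3, ACADL, ADIPOQ, SLC27A6 and CIDEC.

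**Figure D2:**
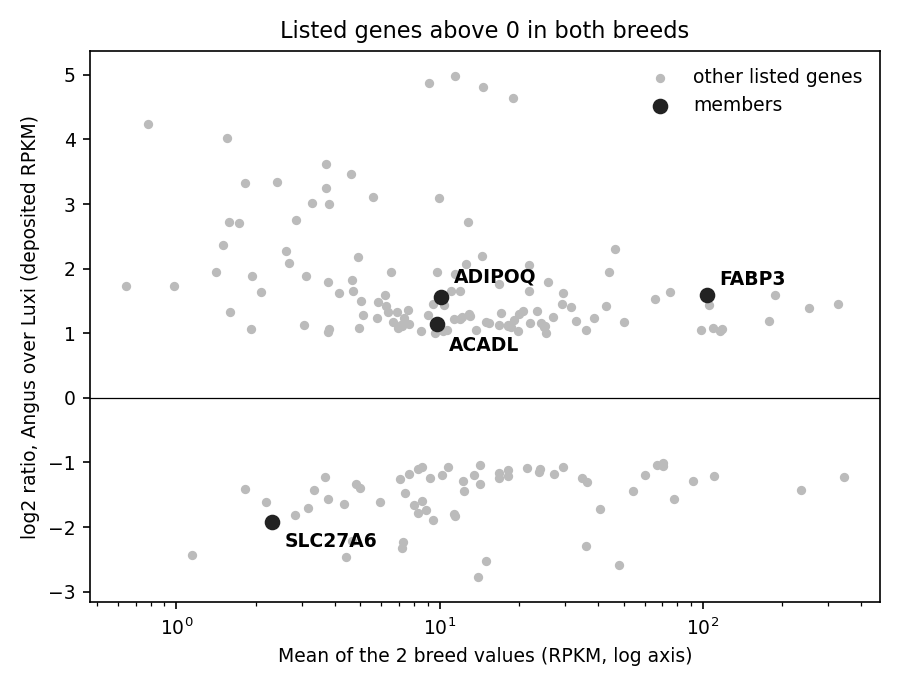
Each point is 1 of the 185 listed genes with reads in both breeds, by the mean of its breed values (RPKM, log axis) and its deposited log2 ratio of Angus over Luxi; black points are ADIPOQ, ACADL, FABP3 and SLC27A6, and CIDEC is left out because it has no Luxi reads. No gene lies closer to 0 than 1.00 because of the authors' listing, and the 4 black points lie among the grey ones.

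Both fat cell genes had their highest Angus value in the deepest library in every set. So did 25.9% of the 147 genes higher in Angus and, among the members, SLC27A6. The trait is therefore not particular to the fat cell genes. From the deepest to the shallowest Angus library CIDEC had 56, 31 and 3 reads, the only set that the means allow, which corresponds to 6.82, 3.88 and 0.386 RPKM. All 3 Luxi libraries had 0 CIDEC reads. The Angus libraries thus spread widely, with a mean of 3.69 ± 3.22 RPKM (SD, n = 3), but each lay above every Luxi library. The 3 reads of the shallowest Angus library equal the limit that a count of 0 allows. With 90 Angus reads in all and the limit of 3 reads over the Luxi libraries (0.118 RPKM), CIDEC was at least 31.3-fold higher in Angus. That bound takes the Angus reads as counted, without their own exact 95% interval of 72.4 to 110.6 reads. The exact 95% interval for 0 Luxi reads reaches 3.69, so the bound is not itself a 95% limit. The authors' deposited FDR for it was 2.07e-08.

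ADIPOQ was more abundant and even more uneven. Its 647 Angus reads can be divided in 19 ways, and in all 19 the deepest library held most of them, 420 to 530 reads, or 29.2 to 36.8 RPKM. The middle Angus library held 0 to 222 reads (up to 15.9 RPKM) and the shallowest 5 to 117 reads (0.367 to 8.59 RPKM). The Luxi libraries held one of 4 sets, from deepest to shallowest 45, 120 and 63 reads, or 59, 83 and 86, or 73, 46 and 109, or 87, 9 and 132. In RPKM, no Luxi library exceeded 9.07 in any of these sets. The deepest Angus library was therefore above every Luxi library in every set, while the Angus and Luxi libraries as groups overlapped in every set.

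The ADIPOQ difference between the breed means of 15.1 and 5.14 RPKM was smaller than the SD between the Angus libraries, which was 14.4 to 19.3 RPKM over the sets. Without the deepest Angus library the ratio lay between 0.836-fold and 1.58-fold, so its direction was not determined and it was under 2-fold in every set. Leaving out any other library kept ADIPOQ at least 2.04-fold higher in Angus. CIDEC without the deepest Angus library was still at least 18.1-fold higher in Angus, with 31 and 3 reads in the other Angus libraries. In a bulk sample, more fat cells and more RNA of these genes per fat cell cannot be told apart.

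**Figure D3:**
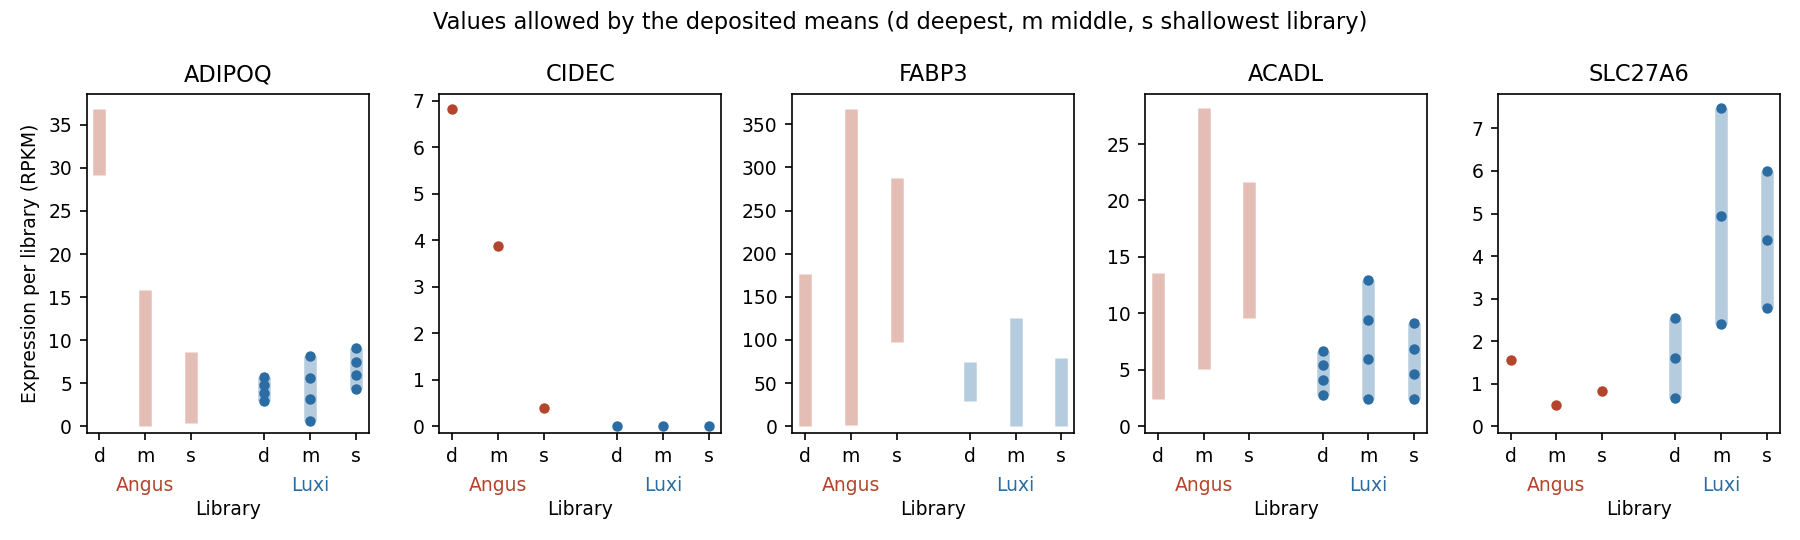
Expression of each gene (RPKM) in the deepest (d), middle (m) and shallowest (s) library of each breed; bars span all sets of reads that the deposited means allow, and points mark the single sets where there are 4 or fewer. The deepest Angus library is highest for ADIPOQ, CIDEC and SLC27A6 among Angus libraries, while for FABP3 and ACADL the shallowest Angus bar starts at 98.0 and 9.62 RPKM.

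FABP3 and ACADL, the genes of fatty acid binding and oxidation, did not have their highest Angus value in the deepest library. The deepest Angus library was the highest in 0 of the 1230 possible sets of FABP3 and in 0 of the 19 sets of ACADL. The highest was either the middle or the shallowest library. Among all 147 genes higher in Angus, the deepest library was highest in no set for 51.7% and in every set for 25.9%. FABP3 and ACADL thus shared the more common case of the list, and no trait of these genes is read from it.

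The shallowest Angus library had 735 to 2158 FABP3 reads, or 98.0 to 288 RPKM. This was above the deepest Luxi library (28.7 to 75.0 RPKM) and the shallowest Luxi library (0.250 to 79.4 RPKM) in every set. The middle Luxi library could hold up to 126 RPKM, and the deepest and middle Angus libraries reached from near 0 to 176 and 367 RPKM. Whether all Angus libraries exceeded all Luxi libraries in FABP3 was therefore not determined. The sums, 3564 Angus reads and 1265 Luxi reads, give a ratio per total depth of 2.98-fold with an exact 95% interval of 2.80 to 3.18 that covers counting error alone. Counting error was thus small beside the possible spread between animals.

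ACADL had 398 Angus and 191 Luxi reads, 2.21-fold higher in Angus per total depth (exact 95% interval 1.85 to 2.64, counting error alone). Its 4 possible Luxi sets, from deepest to shallowest library, were 30, 136 and 25 reads, 44, 99 and 48, 58, 62 and 71, or 72, 25 and 94. The shallowest Angus library had 93 to 209 reads, or 9.62 to 21.6 RPKM, above the deepest Luxi library (2.79 to 6.69 RPKM) and the shallowest Luxi library (2.42 to 9.10 RPKM) in every set. The other Angus libraries had 2.45 to 13.6 RPKM (deepest) and 5.03 to 28.2 RPKM (middle). All Angus libraries exceeded all Luxi libraries in 6 of the 76 combinations of sets, so separation of the breeds in ACADL was not determined.

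The ratios of FABP3 and ACADL were also followed when 1 library was left out. Without the deepest Angus library FABP3 was 2.80-fold to 4.51-fold and ACADL 2.20-fold to 3.12-fold higher in Angus. The direction of both was open only without the middle Angus library, with ratios of 0.950-fold to 4.50-fold and 0.996-fold to 2.91-fold. Without the shallowest Angus library the lowest allowed ratios were 1.72-fold and 1.54-fold. Without any 1 Luxi library FABP3 stayed at least 2.01-fold and ACADL at least 1.70-fold higher in Angus. In the whole list the direction was open without the middle Angus library for 41 of 147 genes, since the middle library is the one that the means fix least.

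SLC27A6, the transporter, was the member with the opposite direction. Its Angus libraries had 22, 7 and 11 reads from deepest to shallowest, the only set that the means allow, or 1.55, 0.507 and 0.818 RPKM, a mean of 0.958 ± 0.535 RPKM (SD, n = 3). Its Luxi libraries held one of 3 sets, 10, 109 and 40 reads, or 24, 72 and 63, or 38, 35 and 86. In every set the middle Luxi library (at least 2.40 RPKM) and the shallowest (at least 2.79 RPKM) were above all 3 Angus libraries. The deepest Luxi library had 0.668, 1.60 or 2.54 RPKM and was above all Angus libraries in 2 of the 3 sets. The breeds were thus separated in 2 of 3 sets, and overlapped through 1 Luxi library in the other.

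The direction of SLC27A6 did not depend on 1 library. It was higher in Luxi whichever of the 6 libraries was left out, from 1.80-fold as the lowest value over all sets (without the middle Luxi library) to 5.50-fold (without the deepest Angus library). Its sums of 40 Angus and 159 Luxi reads give 3.75-fold with an exact 95% interval of 2.64 to 5.45, counting error alone. The authors' deposited FDR was 5.54e-05. FABP3 and SLC27A6 thus went opposite ways, although both act in the supply of fatty acids to the fibre, in the authors' deposited table.

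**Figure D4:**
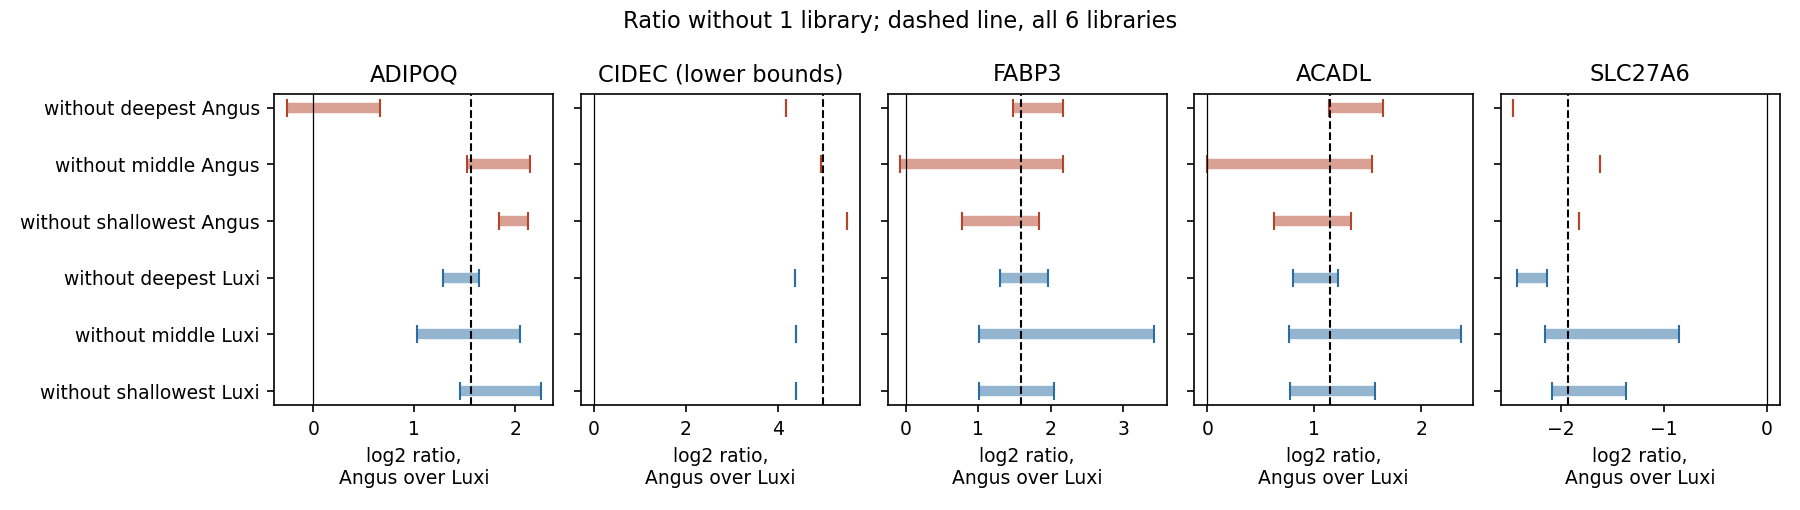
Log2 ratio of Angus over Luxi of each gene with 1 library left out; bars span all possible sets of reads, ticks mark their ends, the dashed line is the value with all 6 libraries, and CIDEC is shown as lower bounds. The bar of ADIPOQ crosses 0 without the deepest Angus library and those of FABP3 and ACADL do so without the middle one, while CIDEC stays above 0 and SLC27A6 below it.

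Of the 5 genes, CIDEC had Angus libraries that all exceeded the Luxi libraries in every set, ADIPOQ had them in no set, and FABP3, ACADL and SLC27A6 were not determined. With 0 Luxi reads, any CIDEC read in each Angus library is enough for this, and the shallowest Angus library had 3, the limit that a count of 0 allows. In the list, 28.6% of the genes higher in Angus and 27.1% of those higher in Luxi were separated in every set. The authors' test is not known. A test of Poisson counts on the breed means treats each breed as 1 library and uses no spread between animals. It came within 5% of the deposited p for ADIPOQ, CIDEC and ACADL. It did so for 121 of the 130 listed genes with a deposited p above 1e-10, and the listed genes with smaller p were left out of this count. For FABP3 the recomputed p was 7.70% higher than the deposited one, and for SLC27A6 it was lower by 11.0% (-11.0%). The deposited p of ADIPOQ, 1.57e-18, therefore stood beside Angus values that overlap those of Luxi.

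Other genes of the same pathways were looked up in the authors' list. Of 157 genes in 6 fixed lists of fat cell and fatty acid genes, 6 were listed. They were the 5 members, which were chosen from the authors' list, and PRKAG3. The authors' gene set is not known here, so no share over all genes stands beside these counts, and nothing is read from them. PRKAG3, the gamma subunit of AMP-activated protein kinase found in fast muscle fibres, had means of 32.7 RPKM (Luxi) and 15.2 RPKM (Angus) in the authors' deposited table. Its direction was not determined without the shallowest Luxi library, where its log2 ratio (Angus over Luxi) could be anything from -0.99 to 0.44. Of 38 genes in the fixed list of mitochondrial and peroxisomal fatty acid oxidation, ACADL was the 1 listed. That fixed list did not hold HACL1, a listed peroxisomal gene given below. Of 27 genes of fatty acid uptake, binding and activation, FABP3 and SLC27A6 were listed, in opposite directions. Of 33 adipocyte genes, ADIPOQ and CIDEC were listed, both higher in Angus, and CIDEC was the 1 listed of 19 genes of the lipid droplet. The list of 32 genes of fatty acid and triacylglycerol synthesis had 0 in the table. The fixed lists did not hold every listed gene linked to fat cells or fatty acid binding. DLK1 (0 Angus and 67 Luxi reads) and CEBPD (46.7 RPKM in Angus and 94.1 in Luxi) were higher in Luxi. PMP2 (4.33 RPKM in Angus and 1.02 in Luxi) was higher in Angus. Genes outside the authors' list were not analysed here, so the other members of these lists have no value.

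The annotation terms deposited with the table were searched after the values were seen, and the genes they gave are named here on that ground. Of 148 listed genes with such terms, 8 had a term naming fatty acids, 4 higher in Angus and 4 in Luxi. ADIPOQ, ACADL and SLC27A6 were 3 of them, while FABP3 carried a term for the response to lipid and CIDEC carried none. The others on the Angus side were HACL1, a peroxisomal enzyme that shortens hydroxylated and branched fatty acids, at 40.0 against 11.5 RPKM, and a cluster of expressed sequence tags (ESTs) at 25.4 against 11.9 RPKM, both from the authors' deposited table. Those on the Luxi side were PRKAG3, ALDH5A1, an enzyme that breaks down a metabolite of the transmitter GABA, at 5.16 against 2.20 RPKM in Angus, and CBR4, a reductase of mitochondrial fatty acid synthesis, at 11.6 against 5.49 RPKM, again from the authors' deposited table.

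Markers of other cell types were also among the listed genes, and their values stand beside the fat cell genes. Of 10 adipocyte markers ADIPOQ and CIDEC were listed, of 9 immune cell markers the mast cell genes TPSB1, CPA3 and KIT, and of 6 epithelial markers KRT8 and KRT19, all higher in Angus. The tendon markers COMP and PRG4 (2 of 11) had the higher mean in Luxi. The deepest Luxi library held most of their Luxi reads, 51 of 64 for COMP and 148 of 164 for PRG4. Without that library PRG4 was higher in Angus (log2 ratio 0.30, against -2.43 in full). COMP stayed higher in Luxi without it, at a log2 ratio of -2.64 or lower with the limit of 3 reads for its 0 Angus reads. Of the other marker lists, 0 of 9 endothelial and 0 of 5 red blood cell markers were listed. Like ADIPOQ and CIDEC, the mast cell genes were highest in the deepest Angus library: TPSB1 had 51, 4 and 12 reads, CPA3 77, 10 and 32, and KIT 153 to 154, 12 to 14 and 30 to 31 reads from deepest to shallowest. This library was highest in every set for 25.9% of the 147 genes higher in Angus. The epithelial gene KRT8, with 106, 86 and 23 reads, had its Angus libraries in the same order as CIDEC, and KRT19 had 51, 61 and 4. The lowest Angus value was thus in the shallowest library for CIDEC, KRT8 and KRT19 and in the middle library for the mast cell genes. Among the fibre markers, 1 of 10 slow and 1 of 11 fast genes were listed, MYL3 and MYH4, and for both the deepest Angus library was highest in 0 sets, as for FABP3 and ACADL. That held for 51.7% of the 147 genes higher in Angus. The part of other cell types and of fibre types in the values of the 5 genes was not tested.

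By ratio and level together, the genes nearest to each member were found as those with the smallest distance in log2 ratio and log2 mean RPKM, over the breed means. Nearest to ADIPOQ were the nuclear receptor NR4A2 (log2 ratio of Angus over Luxi 1.44), embryonic myosin MYH3 (1.46) and an EST cluster (1.65). Nearest to ACADL were RELL1 (1.08), COQ10B, which binds coenzyme Q in mitochondria (1.03), and CHRDL1, an antagonist of bone morphogenetic proteins (1.00). Those nearest to FABP3 were 3 EST clusters at a mean of 105, 75.0 and 109 RPKM. Nearest to SLC27A6 were MGC138914 (-1.81), HABP2 (-1.61) and PTX3 (-1.71). For CIDEC the ratio is set by the 0.001 RPKM deposited in place of 0, so its nearest genes are only those listed at 0 in Luxi with a like Angus level, LOC781339, an HSP90-like gene (3.56 RPKM in Angus), an EST cluster (3.52 RPKM) and LOC100141470, similar to an immunoglobulin chain (4.01 RPKM), in the authors' deposited table.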

How the data were processed

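Muscle RNA of 3 Angus and 3 Luxi cattle was sequenced on an Illumina HiSeq2000 from Trizol-extracted RNA, per the labels' protocols. The aligner, gene set, build, strandedness and test (not given in the sources used here) remain unknown, and no genome coordinates or sequences were used. For 232 listed genes the authors deposited an estimated count per breed, the mean of raw reads over 3 libraries (every value a multiple of 1/3 to within 0.1 read after summing), an RPKM mean with 0.001 in place of 0, a log2 ratio of the RPKM values, a p-value and an FDR, per the file headers. The table's ratio is Luxi over Angus, and ratios here are Angus over Luxi unless stated. All 5 members matched the RefSeq gene table of ARS-UCD2.0 by identifier.

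Reads per library were found by searching for depths at which every gene has a whole-number solution, given RPKM printed to 6 digits. In each breed 1 set of depths remained, fixed to within 4 reads. It gave a solution for 210 of 210 Angus and 207 of 207 Luxi genes with reads, and a single one for 82 and 58. Tested on simulated data (4 tables, 816 genes), the search recovered the depths of all 4, never missed the simulated reads, and each of 240 genes left with one answer had the right one. The simulated tables used depths close to the recovered ones and the averaging and rounding that the search assumes, without the genes with the most reads. They check the search and cannot show that the deposited values were made that way. Values without 1 library use all solutions. Python 3.11.15, NumPy 2.4.6 and SciPy 1.17.1 were used. Intervals are exact Poisson or Clopper-Pearson at 95% and, with the limit of 3 reads for a count of 0, cover counting error only (the labels name no molecular identifiers, so reads may not be independent molecules). The deposited p was recomputed by the test of Audic and Claverie on truncated mean counts. Alternatives were mean counts over depth, a pseudocount of 1 RPKM, a log2 ratio of at least 1.5 and leaving out each library. Named genes are the members, listed genes of 6 fixed lists, listed markers, the 3 genes nearest to each member, and others named after the values were seen. Members and lists were chosen with earlier results of these data known. The result of 1 marker list is not reported here.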

Additional observations from a re-analysis of the deposited data

How the results depend on the processing

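Scaling by mean counts over mean depth gave log2 ratios of Angus over Luxi of 1.59 (ADIPOQ), 1.58 (FABP3), 1.14 (ACADL) and -1.91 (SLC27A6). From the deposited RPKM they were 1.56, 1.59, 1.15 and -1.93. CIDEC had at least 4.99, against at least 4.97. With a pseudocount of 1 RPKM the log2 ratio of Angus over Luxi fell to 2.23 for CIDEC, against at least 4.97, and was -1.25 for SLC27A6, against -1.93, since a pseudocount pulls low genes toward 0. With the 0.001 RPKM deposited in place of 0, an alternative added after seeing the data, CIDEC had 11.85. A log2 limit of 1.5 kept 78 listed genes higher in Angus, against 147, and 3 of the 4 members, ACADL being lost. Leaving out 1 library gave log2 ratios of -0.26 to 2.25 for ADIPOQ, 4.18 to 5.50 for CIDEC, -0.074 to 3.42 for FABP3, -0.0058 to 2.37 for ACADL and -2.46 to -0.85 for SLC27A6, over all solutions. Members sure to be higher in Angus then numbered 2 to 4, the lowest without the middle Angus library (ADIPOQ and CIDEC remained). No paired analysis was possible because the labels pair no Angus animal with a Luxi animal.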
